A study of Mus with 8 samples.

Results

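Cell cycle genes were examined in uterine RNA of mice on day 6 of pseudopregnancy. The set held 41 genes chosen by gene symbol, and all 41 were found among the 31269 gene symbols of the count table. By textbook role, 16 were assigned to origin licensing and S phase, 21 to G2 and mitosis, and 4 to G1 control (the D-type cyclins Ccnd1, Ccnd2 and Ccnd3 and the inhibitor Cdkn1a). Of the 8 libraries, 4 came from uteri labelled as having a myometrial deficiency of the progesterone receptor (PGR) and 4 from uteri labelled control. All came from whole uterine tissue of pseudopregnant mice. The labels place that tissue around implantation sites, although pseudopregnancy follows a sterile mating and involves no embryo. The sources used here give no strain, age, allele or promoter behind the deficiency, and no pooling of animals. Separate animals per library are not stated either, so the p-values measure only the spread between these libraries, which may be technical.

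A dividing cell passes through G1, copies its DNA in S phase, and segregates the copies in mitosis after G2. D-type cyclins with their kinases start the passage out of G1 by releasing E2F transcription factors, which switch on cyclin E and the replication genes. Mitotic genes are transcribed later, mainly in G2, and are silenced in cells that have left the cycle. In the mouse uterus, estrogen drives division of the luminal epithelium, whereas progesterone restrains it and, together with estrogen, brings stromal cells into division. The comparison asks how genes that mark dividing cells differ in whole uterine tissue when the muscle layer is labelled deficient in PGR.

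Pgr, the targeted gene, was no lower in the deficient libraries than in the controls. It measured 186.6, 183.9, 177.3 and 159.7 CPM in deficient libraries 1 to 4, against 131.3, 180.0, 143.8 and 170.9 CPM in control libraries 1 to 4 (CPM on TMM-scaled library sizes). The log2 difference was 0.18 ± 0.11 (SE), with an adjusted p of 0.338 in edgeR's quasi-likelihood test. RNA came from whole uterine tissue, and Pgr is expressed in stroma and epithelium as well as muscle. This value therefore does not check the labels, on which the group names rest, and why Pgr was no lower was not tested. Total counts per library ran from 70296369 to 72364750, and each of the 41 genes had between 69 and 9039 counts in every library. All 41 passed the filter on low counts. Markers of smooth muscle, stroma and epithelium were all detected, and no marker in these lists was at 0 in any library.

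Between the groups, no cell cycle gene passed the main test, and no gene of the set had groups that did not overlap. Of 17629 genes tested, edgeR called 0 (0% of genes) at an adjusted p under 0.05, and 4372 (24.8%) had an unadjusted p under 0.05. Of the 41 cell cycle genes, 3 had an unadjusted p under 0.05: Mcm7 and Cdt1, lower in the deficient libraries, and Ccnd2, higher in them. Their share of the set was below the share among all genes. In 16.3% of all genes the 4 libraries of one group lay wholly beyond the 4 of the other, with the deficient libraries above in 7.61%, and this held for 0 of the 41 in either direction. DESeq2, an alternative test, called 14.2% of genes (7.43% higher in the deficient libraries and 6.72% lower) and 1 of the 41, Mcm7, lower, while limma-voom called 0.0113% of genes and 0 of the 41.

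The G2 and mitosis genes had positive differences throughout, while the licensing and S phase genes were divided. All 21 G2 and mitosis genes had a log2 difference (deficient over control) above 0, against 52% of all genes tested. Their median difference was 0.75, with a range from 0.02 for Cdk1 to 1.17 for Top2a. Of the 16 licensing and S phase genes, 10 had a difference above 0 and 6 below, with a median of 0.09 and a range from -0.44 for Cdt1 to 0.76 for Rrm2. The median over all genes tested was 0.01. The G2 and mitosis median exceeded the S phase median by 0.65. Adjusted p-values in edgeR ran from 0.206 to 0.981 over the 21 mitotic genes and from 0.108 to 0.967 over the 16 S phase genes. These medians are descriptions of the gene sets, with no test of their own. The excess of the mitotic genes rested largely on deficient library 2: without it their median was 0.26 and the excess over the S phase genes 0.30. Without deficient libraries 2 and 3 together the values were 0.30 and 0.26.

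**Figure D1:**
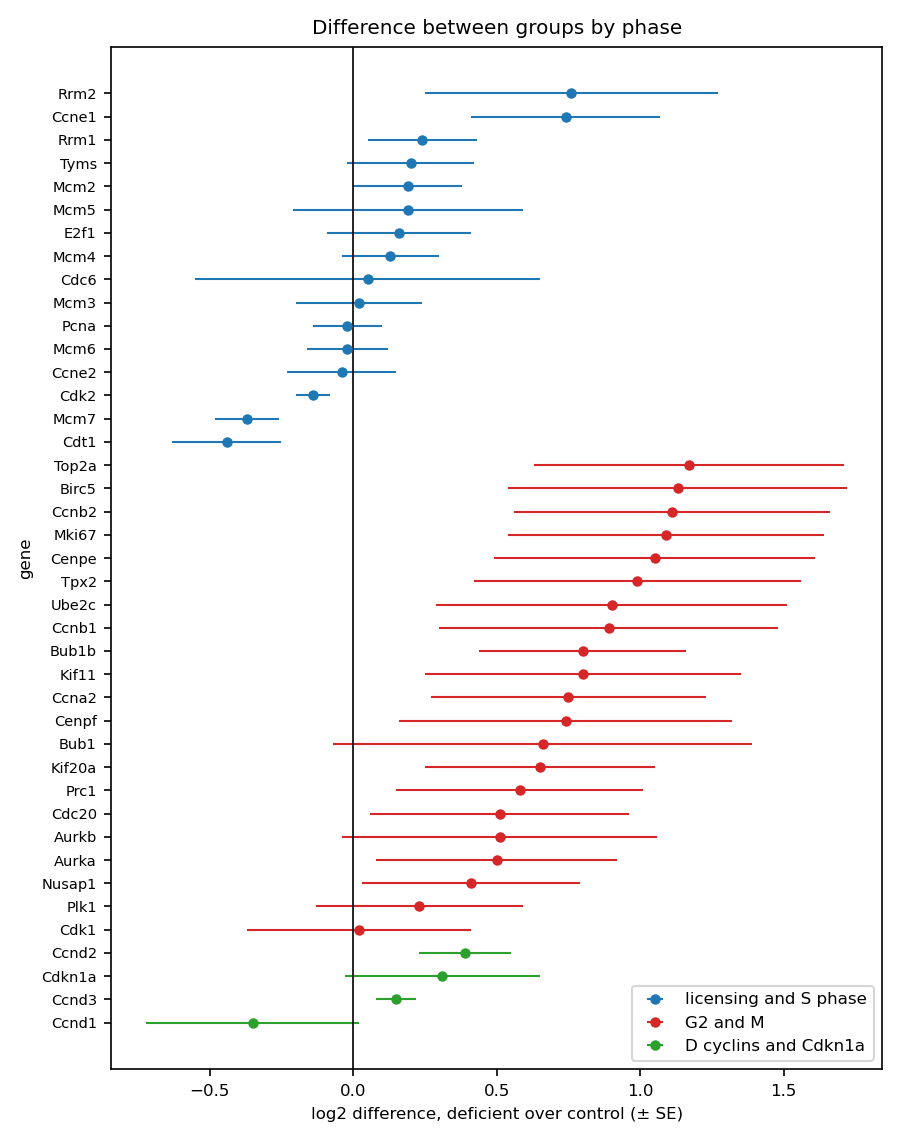
Log2 difference between deficient and control libraries for each of the 41 genes (horizontal axis; points, edgeR estimate; bars, SE; 4 libraries per group), sorted within phase (vertical axis, gene). The G2 and mitosis genes lie from 0.02 to 1.17 with wide errors, and the licensing and S phase genes lie on both sides of 0, from -0.44 to 0.76.

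The mitotic genes varied more from library to library than between the groups. After each gene was centred on its mean over the 8 libraries on the log2 CPM scale, the 21 genes averaged 0.71, 1.43, -0.12 and -0.90 in deficient libraries 1 to 4, against -1.07, 0.20, -0.43 and 0.17 in control libraries 1 to 4. Deficient libraries 1 and 2 thus lay above every control, deficient library 3 lay between the controls, and deficient library 4 lay near control library 1, the lowest. Gene by gene the order was much the same. Deficient library 2 was above all controls for 21 of 21 genes and was the highest library for 20. Deficient library 1 was above all controls for 20 of 21. Deficient library 3 fell within the control range for 20 of 21, the exception being Bub1b. Deficient library 4 fell within the control range for 17 and below every control for 4. Control library 1 was the lowest library for 17.

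**Figure D2:**
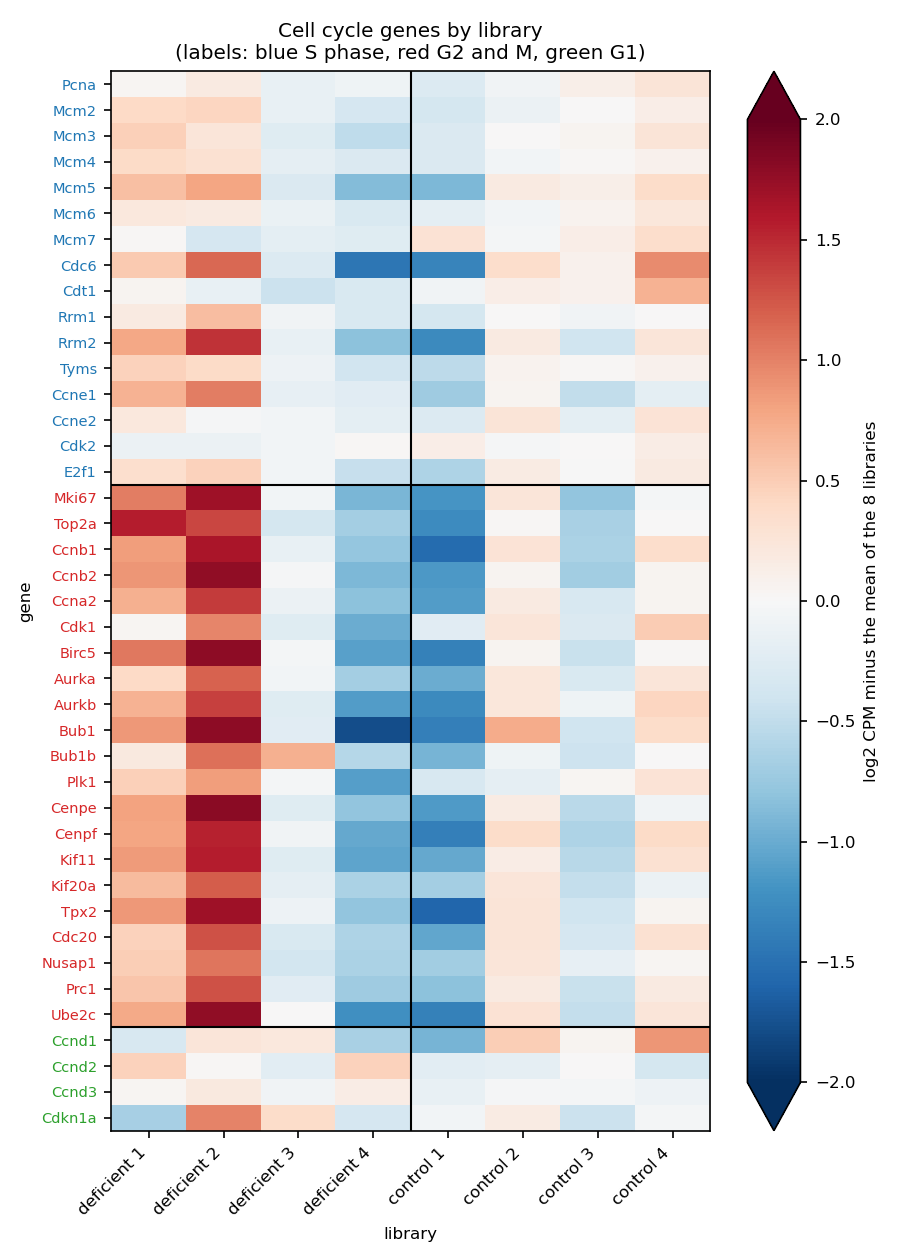
Log2 CPM of each of the 41 genes (rows) in each library (columns), minus the gene's mean over the 8 libraries, with deficient libraries left of control libraries. The red mitotic rows are highest in deficient libraries 1 and 2 and lowest in deficient library 4 and control library 1, and the S phase rows vary less, with means from -0.44 to 0.41.

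Mki67 encodes the Ki-67 protein that coats mitotic chromosomes and is the usual marker of cycling cells. The gene spans positions 135689784 to 135716450 of chromosome 7 (GRCm38.p6). It measured 62.9, 100.5, 29.9 and 16.5 CPM in deficient libraries 1 to 4, against 13.7, 36.6, 17.99 and 30.3 CPM in control libraries 1 to 4. Deficient libraries 1 and 2 were above all controls, and libraries 3 and 4 were within the control range. The log2 difference was 1.09 ± 0.55 (SE), with an adjusted p of 0.257 in edgeR. Leaving out each library in turn gave 0.57 (without deficient library 2) to 1.39 (without deficient library 4). Top2a, topoisomerase II alpha, untangles sister chromatids before they separate. The gene spans positions 98992947 to 99024199 of chromosome 11. Its level was 106.3, 90.7, 28.0 and 22.3 CPM in deficient libraries 1 to 4, against 14.9, 36.5, 22.7 and 35.9 CPM in control libraries 1 to 4. It was the only mitotic gene of the 21 that was higher in deficient library 1 than in deficient library 2. The difference was 1.17 ± 0.54 with an adjusted p of 0.224 in edgeR, and it was 0.77 without deficient library 1.

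Cyclins A and B and their kinase drive entry into mitosis. Ccnb1, cyclin B1, measured 7.55, 13.2, 3.79 and 2.46 CPM in deficient libraries 1 to 4, against 1.43, 5.11, 2.70 and 5.36 CPM in control libraries 1 to 4. The groups overlapped, since control libraries 2 and 4 were above deficient libraries 3 and 4. Its difference was 0.89 ± 0.59, that of Ccnb2 (cyclin B2) 1.11 ± 0.55 and that of Ccna2 (cyclin A2, which also acts in S phase) 0.75 ± 0.48. Cdk1, the kinase these cyclins activate, was chosen for mention after its values were seen, because its difference was the smallest of the 21. It measured 14.9, 28.4, 12.3 and 7.24 CPM in deficient libraries 1 to 4, against 12.4, 17.1, 11.8 and 20.6 CPM in control libraries 1 to 4. Only deficient library 2 was above all controls, and deficient library 4 was the lowest of the 8 libraries. The difference of Cdk1 was 0.02 ± 0.39, and its sign changed under upper quartile scaling (-0.01) and library totals (-0.04).

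Genes of mitotic kinases, their partners and the spindle checkpoint had differences from 0.23 for Plk1 to 1.13 for Birc5. Birc5 (survivin) and Aurkb (Aurora B) belong to the chromosomal passenger complex, which corrects faulty attachments of chromosomes to the spindle. They stood at 1.13 ± 0.59 and 0.51 ± 0.55. Aurka (Aurora A) and Plk1, kinases of centrosome maturation and spindle assembly, stood at 0.50 ± 0.42 and 0.23 ± 0.36. Of the spindle checkpoint genes, Bub1 stood at 0.66 ± 0.73 and Bub1b (BubR1) at 0.80 ± 0.36. Bub1b had the smallest unadjusted p of the 21 genes, 0.0531, with an adjusted p of 0.206 in edgeR. It was also the gene in which deficient library 3 departed from the control range, and is described in full for that reason. It measured 15.2, 28.3, 21.6 and 8.87 CPM in deficient libraries 1 to 4, against 6.89, 12.4, 9.87 and 13.2 CPM in control libraries 1 to 4. Deficient libraries 1, 2 and 3 were above all controls and deficient library 4 was within their range.

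Motor and spindle genes stood between 0.41 and 1.05. Cenpe, a kinesin that carries chromosomes to the spindle equator, stood at 1.05 ± 0.56, and Tpx2, which nucleates spindle microtubules and activates Aurora A, at 0.99 ± 0.57. Kif11, the motor that pushes spindle poles apart, stood at 0.80 ± 0.55, and Kif20a, a kinesin of cytokinesis, at 0.65 ± 0.40. Cenpf, a kinetochore protein, stood at 0.74 ± 0.58. The microtubule bundlers Prc1 and Nusap1 stood at 0.58 ± 0.43 and 0.41 ± 0.38. Ube2c and Cdc20 encode a ubiquitin-conjugating enzyme and an activator of the anaphase-promoting complex, which destroys cyclin B. Their differences were 0.90 ± 0.61 and 0.51 ± 0.45. None passed the threshold in edgeR or in DESeq2 with all 8 libraries.

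Whether any mitotic gene was called depended on deficient library 4. Without it, DESeq2, in an alternative chosen after seeing the data, called 6 of the 21 mitotic genes higher in the deficient libraries, where 11.9% of all genes were called higher. These were Bub1b (log2 difference 1.03, adjusted p = 0.00584), Top2a (1.45, 0.0161), Mki67 (1.39, 0.0176), Birc5 (1.45, 0.0177), Ccnb2 (1.41, 0.0187) and Cenpe (1.34, 0.0384). The S phase cyclin Ccne1 was called as well (0.91, 0.0454), which made 7 of the 41 genes. In edgeR without the same library, 11 of the 21 had an unadjusted p under 0.05, all higher, against 30.7% of all genes in either direction and 16.4% higher, and 0 of the 41 passed the adjusted threshold. None of the 21 was called by DESeq2 on leaving out any other library. Deficient library 4 was the lowest deficient library for each of the 21 genes, so leaving it out had to raise every difference. The 21 genes also rose and fell together across libraries. The counts without deficient library 4 are therefore no support for a group difference.

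**Figure D3:**
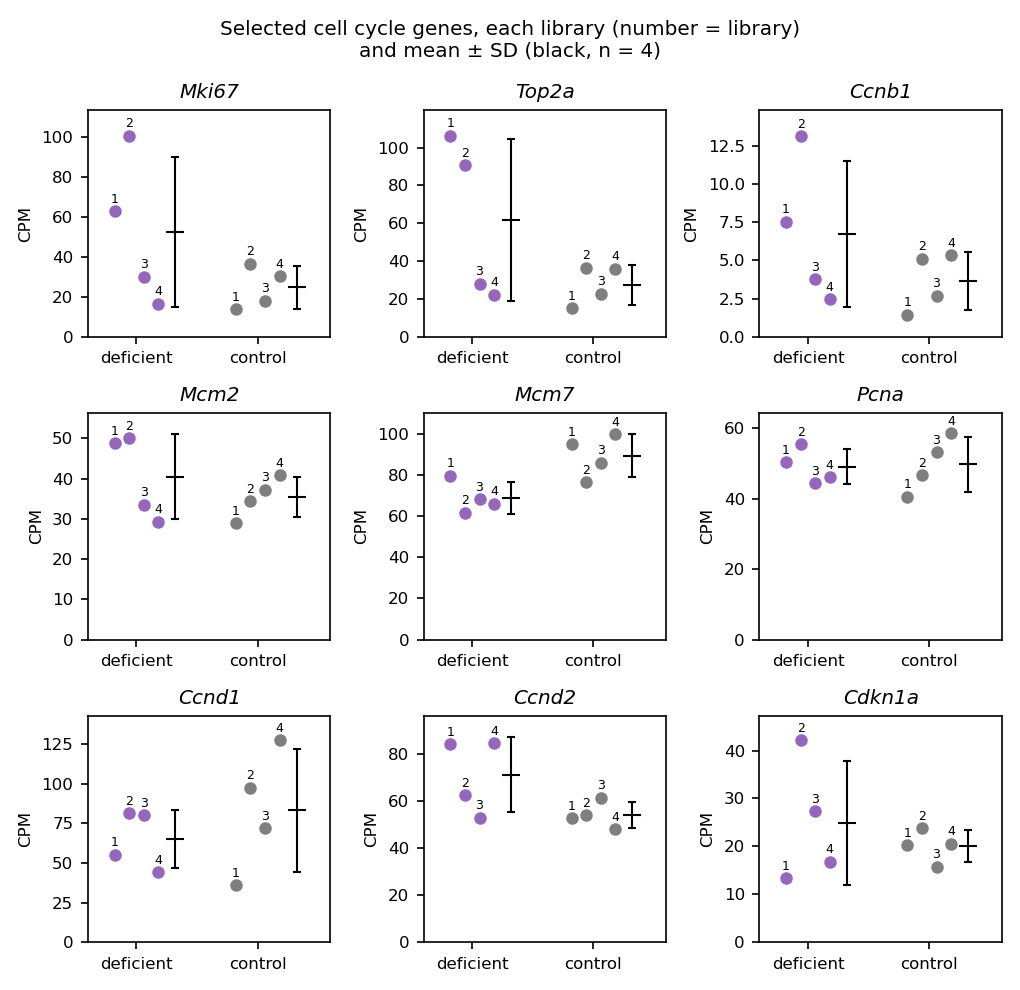
Level of 9 cell cycle genes in CPM (vertical axes, from 0) in each deficient and control library (points, numbered by library), with the mean ± SD of each group (n = 4). Mki67, Top2a and Ccnb1 have deficient libraries 1 and 2 above all controls, whereas for Mcm7 most deficient libraries lie below the controls.

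The licensing and S phase genes showed no common difference between the groups. Mcm2 to Mcm7 encode the 6 subunits of the ring-shaped helicase that is loaded at origins in G1 and unwinds DNA in S phase. Mcm2 measured 48.9, 50.03, 33.5 and 29.3 CPM in deficient libraries 1 to 4, against 29.0, 34.4, 37.3 and 40.8 CPM in control libraries 1 to 4. As for the mitotic genes, deficient libraries 1 and 2 were above all controls, but by a smaller factor. The difference was 0.19 ± 0.19 with an adjusted p of 0.549 in edgeR. Mcm3, Mcm4, Mcm5 and Mcm6 stood at 0.02 ± 0.22, 0.13 ± 0.17, 0.19 ± 0.40 and -0.02 ± 0.14.

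Mcm7 departed from the other subunits. It measured 79.7, 61.7, 68.2 and 66.1 CPM in deficient libraries 1 to 4, against 95.2, 76.4, 86.0 and 99.98 CPM in control libraries 1 to 4. Deficient libraries 2, 3 and 4 were below all controls, and deficient library 1 was above control library 2 alone. The deficient mean was 68.9 ± 7.67 CPM and the control mean 89.4 ± 10.4 CPM (SD, n = 4). The log2 difference was -0.37 ± 0.11, with an unadjusted p of 0.00806 and an adjusted p of 0.108 in edgeR. DESeq2 called it at an adjusted p of 0.0268, and that call was lost on leaving out control library 1 (0.116), 3 (0.0616) or 4 (0.136), or deficient library 2 (0.0904), 3 (0.0875) or 4 (0.0558). It was also lost without deficient libraries 2 and 3 together (0.235). Mcm7 spans positions 138164583 to 138172111 of chromosome 5 and overlaps Ap4m1 and the microRNA genes Mir106b, Mir93 and Mir25. Overlap was taken from whole gene spans, and the sources used here do not say whether counting used strand. Whether reads of the overlapping genes were counted for Mcm7 is therefore not known. In all, 16 of the 41 genes overlap another gene of the RefSeq table, Top2a and Ccnd2 among them.

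The loading factors Cdc6 and Cdt1 bring the helicase to origins. Cdt1 measured 13.2, 11.4, 9.38 and 10.3 CPM in deficient libraries 1 to 4, against 12.04, 13.9, 13.5 and 20.6 CPM in control libraries 1 to 4. Deficient library 1 was above control library 1, so the groups overlapped, and control library 4 was the highest. The difference was -0.44 ± 0.19 (unadjusted p 0.0488, adjusted p 0.199 in edgeR) and -0.26 without control library 4. Cdc6 stood at 0.05 ± 0.60, and its sign changed under library totals (-0.00) and limma-voom (-0.04). Pcna, the sliding clamp of DNA polymerase, measured 50.4, 55.4, 44.4 and 46.2 CPM in deficient libraries 1 to 4, against 40.6, 46.6, 53.2 and 58.7 CPM in control libraries 1 to 4. Its groups overlapped almost fully, and the difference was -0.02 ± 0.12.

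Among the nucleotide synthesis genes, Rrm2 followed the mitotic genes most closely. Rrm2, the cell-cycle-regulated subunit of ribonucleotide reductase, was chosen for a full account after its values were seen. It measured 16.9, 26.7, 8.92 and 5.55 CPM in deficient libraries 1 to 4, against 4.08, 11.2, 7.45 and 11.6 CPM in control libraries 1 to 4. Deficient libraries 1 and 2 were again above all controls. The difference was 0.76 ± 0.51 with an adjusted p of 0.378 in edgeR, and 0.29 without deficient library 2. Rrm1, the large subunit, stood at 0.24 ± 0.19 and Tyms, thymidylate synthase, at 0.20 ± 0.22.

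Of the genes of the G1 to S transition, Ccne1 had the largest difference. Ccne1 and Ccne2 encode cyclin E1 and cyclin E2, which activate the kinase Cdk2, and stood at 0.74 ± 0.33 and -0.04 ± 0.19. Ccne1 had an adjusted p of 0.209 in edgeR. Cdk2 stood at -0.14 ± 0.06 and varied little between libraries. E2f1, the transcription factor that switches on S phase genes, stood at 0.16 ± 0.25.

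In the same centred scale the 16 S phase genes averaged 0.33, 0.41, -0.17 and -0.42 in deficient libraries 1 to 4, against -0.44, 0.07, -0.03 and 0.25 in control libraries 1 to 4. Deficient libraries 1 and 2 were again the highest and control library 1 and deficient library 4 the lowest, so the order resembled that of the mitotic genes with a narrower span. The mitotic mean minus the S phase mean was 0.38, 1.02, 0.05 and -0.48 in deficient libraries 1 to 4, against -0.63, 0.13, -0.40 and -0.08 in control libraries 1 to 4. The groups overlapped in this gap as well, because deficient library 4 lay below control libraries 2, 3 and 4.

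Genes of the same processes outside the set were also divided by phase. Of 50 other mitosis genes, 47 had a positive difference, against 52% of all genes tested, and their median was 0.53. In edgeR 0 passed the adjusted threshold, and 2 higher and 1 lower had an unadjusted p under 0.05, where 13% and 11.8% of all genes did. Their means were 0.53, 1.15, -0.11 and -0.70 in deficient libraries 1 to 4, against -0.82, 0.10, -0.31 and 0.16 in control libraries 1 to 4. That is nearly the library order of the mitotic genes in the set. The 50 genes thus repeat the same pattern in the same libraries and are no separate support for a group difference. The 4 with the smallest p were Cdc25b, Mad2l1, Spc25 and Incenp. Mad2l1, a spindle checkpoint gene, measured 20.1, 65.3, 19.6 and 13.8 CPM in deficient libraries 1 to 4, against 9.29, 16.3, 11.0 and 15.2 CPM in control libraries 1 to 4. Deficient library 2 stood far above the other 7 libraries, and the difference was 1.20 ± 0.48. Spc25, a kinetochore subunit, stood at 0.78 ± 0.34 and Incenp, of the passenger complex, at 0.69 ± 0.32.

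Cdc25b, a phosphatase that activates Cdk1, went the other way from most mitotic genes. It measured 51.6, 45.9, 56.0 and 55.0 CPM in deficient libraries 1 to 4, against 66.9, 65.1, 62.8 and 76.9 CPM in control libraries 1 to 4. All 4 deficient libraries were below all controls, as in 8.66% of all genes. The difference was -0.38 ± 0.09, with an adjusted p of 0.0908 in edgeR and 0.00485 in DESeq2. Cdc25b was the 1 gene of the 50 that DESeq2 called, against 14.2% of all genes. Of 46 other replication genes, 21 had a positive difference and 25 a negative one, with a median of -0.02. In edgeR 0 of the 46 passed the adjusted threshold, and DESeq2 called 0, against 14.2% of all genes. Gins4, a subunit of the active helicase, was alone in having an unadjusted p under 0.05 in edgeR, where 24.8% of all genes did. It stood at -0.17 ± 0.07, and all its deficient libraries were below all controls. Orc2 and Orc5, of the origin recognition complex, stood at 0.15 ± 0.07 and -0.17 ± 0.07, and Slbp, which binds histone messenger RNA, at 0.19 ± 0.08.

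**Figure D4:**
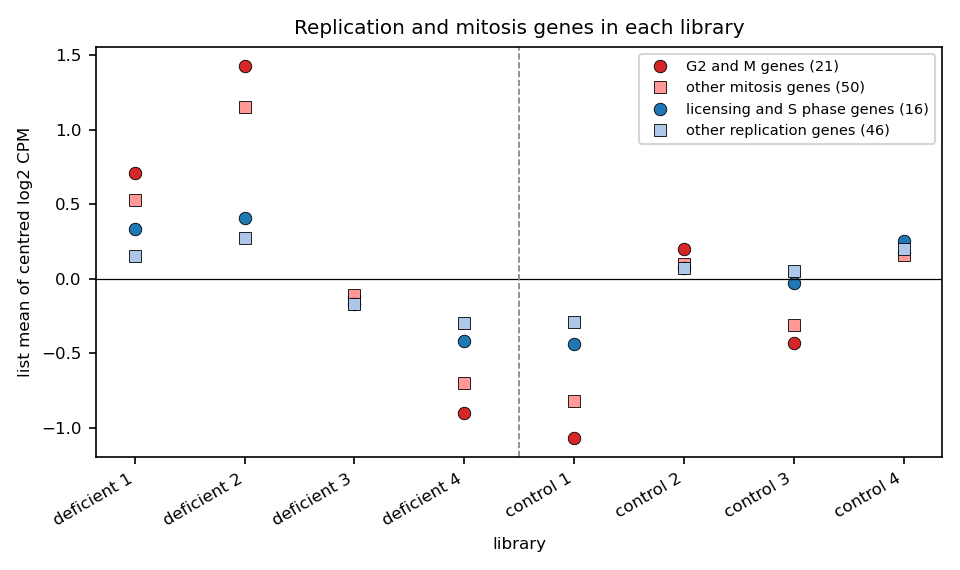
Mean over each gene list of centred log2 CPM (vertical axis) in each library (horizontal axis, deficient libraries left), for the 21 G2 and mitosis genes, 50 other mitosis genes, 16 licensing and S phase genes and 46 other replication genes. Mitosis lists reach 1.43 and 1.15 in deficient library 2, and replication lists stay between -0.44 and 0.41.

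The D-type cyclins differed from each other. Ccnd1 measured 55.3, 81.3, 80.0 and 44.1 CPM in deficient libraries 1 to 4, against 36.0, 97.5, 72.03 and 127.5 CPM in control libraries 1 to 4. The control libraries held both the lowest and the highest value, and the difference was -0.35 ± 0.37. Ccnd2 measured 84.3, 62.5, 53.1 and 84.7 CPM in deficient libraries 1 to 4, against 52.9, 54.2, 61.5 and 48.2 CPM in control libraries 1 to 4. For Ccnd2 deficient libraries 1 and 4 were well above the controls, deficient library 2 was just above them, and deficient library 3 was within their range. The highest pair differed from that of the mitotic genes. The difference was 0.39 ± 0.16, with an unadjusted p of 0.0389 and an adjusted p of 0.180 in edgeR. DESeq2 gave an adjusted p of 0.119 with all libraries. In alternatives chosen after seeing the data, it called Ccnd2 higher without deficient library 3 (0.51, adjusted p = 0.0162), where it called 4.62% of all genes higher. It also did so without deficient libraries 2 and 3 (0.64, 1.39e-05), where it called 3.59%. Each fit left out the lowest deficient values of Ccnd2, and the latter kept only deficient libraries 1 and 4. These calls therefore describe the remaining libraries and are no support for a difference. Ccnd3 stood at 0.15 ± 0.07 and was also called by DESeq2 without deficient library 3 (0.21, 0.0483), again its lowest deficient library.

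Cdkn1a encodes p21, an inhibitor of cyclin-dependent kinases that p53 induces. It measured 13.4, 42.2, 27.4 and 16.8 CPM in deficient libraries 1 to 4, against 20.3, 23.8, 15.8 and 20.5 CPM in control libraries 1 to 4. Deficient libraries 2 and 3 were above all controls and deficient library 1 was below all of them. The difference was 0.31 ± 0.34, with an adjusted p of 0.585 in edgeR, and -0.06 without deficient library 2. Deficient library 1 thus combined high mitotic genes with the lowest Cdkn1a, and deficient library 2 high mitotic genes with the highest Cdkn1a.

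Inhibitors and other regulators of the cycle outside the set were evenly divided by sign. Of 28 listed regulators (inhibitors, pocket proteins, G1 kinases and E2F factors) 27 were found and 26 tested. In edgeR 0 passed the adjusted threshold, with 2 of 26 higher and 6 of 26 lower at an unadjusted p under 0.05, where 13% of all genes were higher and 11.8% lower. The 3 calls of DESeq2 were all lower, where it called 7.43% of all genes higher and 6.72% lower. The median difference was 0.01, with 13 positive and 13 negative. Cdkn1b encodes p27, which holds cells in quiescence. It measured 145.7, 167.2, 168.4 and 183.2 CPM in deficient libraries 1 to 4, against 218.3, 203.5, 197.5 and 243.8 CPM in control libraries 1 to 4. All deficient libraries were below all controls, and the difference was -0.38 ± 0.09 (adjusted p = 0.0969 in edgeR, 0.00782 in DESeq2). Btg1, an antiproliferative gene, stood at -0.34 ± 0.09 and Rb1, the retinoblastoma protein that restrains E2F, at -0.22 ± 0.06. DESeq2 called both lower (0.0102 and 0.0233), while edgeR did not (adjusted p 0.101 and 0.111). The span of Rb1 overlaps that of Lpar6, and whether their exons share reads was not checked. Fzr1, the activator of the anaphase-promoting complex in G1, stood at 0.30 ± 0.10 and was called by neither. Of the 27 genes found, Cdkn2a was at or near 0 in all libraries and was not tested.

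Of 22 genes listed here as p53 targets, 11 had a positive and 11 a negative difference, with a median of 0.00. Whether p53 controls each of them in this tissue was not tested. In edgeR 0 passed the adjusted threshold, with 2 higher and 3 lower at an unadjusted p under 0.05, against 13% and 11.8% of all genes. The calls of DESeq2 were 1 higher and 2 lower, against 7.43% and 6.72% of all genes, so both counts were near the share over all genes. Sesn1, sestrin 1, which is induced by p53 and FoxO factors, measured 118.8, 112.2, 143.8 and 125.3 CPM in deficient libraries 1 to 4, against 216.9, 196.9, 207.0 and 216.4 CPM in control libraries 1 to 4. All 4 deficient libraries were well below all controls. The difference was -0.74 ± 0.08, with an adjusted p of 0.0715 in edgeR, the smallest reached by any gene and shared with other genes, and 9.29e-12 in DESeq2. Gadd45g, a growth arrest gene, stood at 1.49 ± 0.36 (0.0940 in edgeR, 0.00126 in DESeq2). Eda2r, a receptor of the tumour necrosis factor family, stood at -0.94 ± 0.32 (0.137 in edgeR, 0.0355 in DESeq2), and Fas, a death receptor, at -0.37 ± 0.14.

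The spread of the mitotic genes within groups was wide compared with other genes. The SD of log2 CPM within groups had a median of 0.916 over the 21 mitotic genes, 0.308 over the 16 S phase genes and 0.217 over all genes tested. Of the 21 mitotic genes, 14 were above the 90th percentile of all genes for this spread, and of the 16 S phase genes 2 were, Cdc6 and Rrm2. Bub1 had the widest spread of the 41 genes (1.27) and Cdk2 the narrowest (0.0777).

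**Figure D5:**
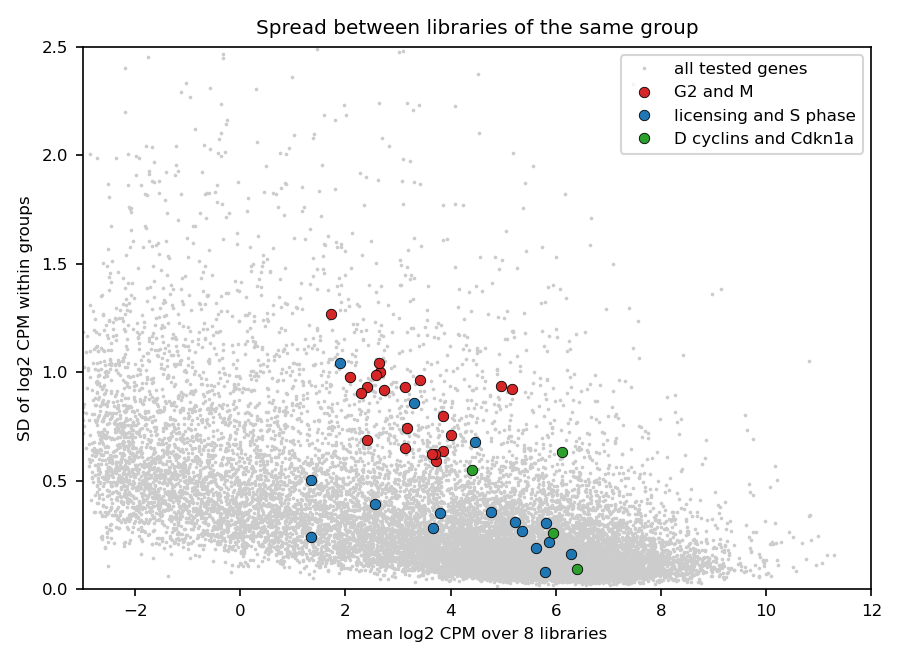
SD of log2 CPM among libraries of the same group (vertical axis) against mean log2 CPM (horizontal axis) for all genes tested (grey) and the 41 cell cycle genes (coloured by phase); 34 genes lie outside the axes. Mitotic genes lie between 0.592 and 1.27, and S phase genes from 0.0777 upward.

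Cell type markers also differed between these libraries, and in bulk RNA fewer cells of a type and less RNA per cell cannot be told apart. Summed over 12 epithelial markers, the level was 1496, 3857, 2837 and 1581 CPM in deficient libraries 1 to 4, against 1424 to 1660 CPM in the controls, and 9 of 12 had a positive difference. Summed over 7 estrogen-induced epithelial genes it was 1345, 10180, 6935 and 1546 CPM in deficient libraries 1 to 4, against 1261 to 2980 CPM in the controls, and 7 of 7 were positive. Both sums were high in deficient libraries 2 and 3 and not in deficient library 1. The mitotic genes were instead high in deficient libraries 1 and 2. Not every marker followed its sum: deficient library 1 was the highest library for the epithelial marker Cldn3 and the estrogen-induced gene Clca1.

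Lymphocyte and natural killer cell markers summed to 335.8, 478.6, 323.2 and 291.8 CPM in deficient libraries 1 to 4, against 196.7 to 296.1 CPM in the controls, with 11 of 12 positive. Much of this sum was Ptprc, a gene of leukocytes in general. Ptprc measured 177.8, 241.8, 184.9 and 166.9 CPM in deficient libraries 1 to 4, against 120.5 to 177.7 CPM in the controls. Macrophage markers summed to 842.6 to 1177 CPM in deficient libraries, above the 598.2 to 817.0 CPM of the controls, with 9 of 9 positive. The summed lymphocyte and natural killer level was highest in deficient library 2, but the mean of its centred log2 values was highest in deficient library 4 (0.75), where the mitotic genes were low. Stromal markers summed to 9699 to 11720 CPM in deficient libraries against 7444 to 9669 CPM in controls, although only 4 of 10 were positive. Most of the stromal sum came from the collagen genes Col1a1, Col1a2 and Col3a1, with differences of 0.67, 0.42 and 0.33. Lum stood at 0.18, and all other stromal markers were negative. Smooth muscle markers summed to 4565 to 5326 CPM in deficient libraries against 4574 to 6775 CPM in controls, with 0 of 10 positive. Endothelial markers summed to 1379, 715.2, 822.6 and 1219 CPM in deficient libraries 1 to 4, against 1048 to 1252 CPM in the controls, with 3 of 8 positive. In edgeR 0 markers of these lists passed the adjusted threshold. At an unadjusted p under 0.05 there were 4 epithelial, 3 estrogen-induced, 8 lymphocyte or natural killer and 8 macrophage genes, all higher, 3 stromal genes higher and 1 lower, 3 smooth muscle genes lower and 0 endothelial genes, where 13% of all genes were higher and 11.8% lower. DESeq2 called 2 epithelial, 3 estrogen-induced, 3 lymphocyte or natural killer and 6 macrophage genes higher, 2 stromal genes higher and 1 lower, 1 smooth muscle gene lower and 0 endothelial genes, where it called 7.43% of all genes higher and 6.72% lower. The part of cell composition in the levels of the mitotic genes was not tested.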

How the data were processed

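RNA was sequenced from 8 uterine libraries, 4 labelled deficient for PGR in the myometrium and 4 labelled control. HISAT2 2.2.1, HTSeq 0.10.0 and mm10 are named in the submitters' processing notes, without settings or strand. Whole-number counts per gene symbol were deposited by the authors without normalization. Columns were matched to samples by the names in the sample titles.

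Genes were filtered with filterByExpr and scaled with TMM, and differences (deficient over control) were estimated over all genes by the quasi-likelihood functions of edgeR 4.0.16 in R 4.3.3, with Benjamini-Hochberg adjustment at 0.05. SE was taken from the difference and its F value. Centred log2 CPM used a prior count of 2. DESeq2 1.42.0 and limma-voom (limma 3.58.1) were alternatives, with other scalings (edgeR), other filters, a replicate block and left-out libraries. The fits were tested on simulated data. Lists of genes were described by counts and medians, without a test. Of the 41 genes, values in every library were given for those with an unadjusted p under 0.05 or no overlap, for 7 fixed genes, and for Cdk1, Bub1b and Rrm2, picked with their values in view. Up to 4 genes per pathway list were named by smallest p. The genes and lists were chosen with earlier results of these data known. Of the listed symbols, 6 were matched through older names and 1 was not matched. Coordinates and overlaps came from a RefSeq gene table (GRCm38.p6, a patch release of mm10). Promoter motifs were not analysed here. Counting error is small at these depths. No 2 libraries agreed within sampling noise, the smallest mean chi-square per gene being 38.8.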

Additional observations from a re-analysis of the deposited data

Results flagged for a closer look

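Each group was tested for an outlying highest or lowest library in each of the 41 genes and Pgr. Of these 84 group tests 1 flagged a library, where chance flags about 1 in 20 groups, so flags were fewer than chance gives. Tyms, thymidylate synthase, measured 9.62 CPM in control library 1, and the nearest control library was at 14.1 CPM. That gap was 0.893 of the range of the group, above the critical value of Dixon's test for 4 samples.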

How the results depend on the processing

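Genes called over the whole table numbered 0 in edgeR, 2488 in DESeq2, 2 in limma-voom, 3 with legacy=FALSE, 23 with the replicate block, and 0 to 2 on leaving out 1 library. At an unadjusted p under 0.05 there were 3 of the 41 genes in edgeR, where 24.8% of all genes were. DESeq2 had 9 of the 41 (28.9% of all genes), limma-voom 1 (23.7%) and the replicate block 1 (24.6%). On leaving out 1 library there were 1 (without control library 4, 16.2% of all genes) to 14 (without deficient library 4, 30.7%). Without deficient library 3 there were 5 (20.8%). The median of the mitotic genes stayed positive in all settings run, from 0.26 to 1.03 on leaving out 1 library and 0.61 with the replicate block. The median of the S phase genes ran from -0.05 to 0.27 on leaving out 1 library, with negative values without control library 1 (-0.05), deficient library 1 (-0.01) or deficient library 2 (-0.04). The excess of the mitotic median ran from 0.30 to 0.82 on leaving out 1 library and was 0.26 without deficient libraries 2 and 3.

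Of 779 refits of single genes, 38 turned the sign, in 11 genes, none called in either direction. Library totals gave -0.02 for Mcm3, -0.00 for Cdc6 and -0.04 for Cdk1, limma-voom gave -0.02, -0.04 and -0.13 for the same genes, and upper quartile scaling gave -0.01 for Cdk1. The replicate block gave -0.01 for Mcm3 and -0.09 for Cdk1. Without deficient libraries 2 and 3, Cdc6 was at -0.37, Cdk1 at -0.48, Plk1 at -0.08 and Cdkn1a at -0.41. On leaving out 1 library the ranges were -0.11 to 0.06 for Pcna, -0.15 to 0.17 for Mcm3, -0.07 to 0.42 for Mcm5, -0.10 to 0.07 for Mcm6, -0.41 to 0.40 for Cdc6, -0.14 to 0.04 for Ccne2, -0.00 to 0.31 for E2f1, -0.43 to 0.26 for Cdk1, -0.04 to 1.01 for Bub1, -0.05 to 0.49 for Plk1 and -0.06 to 0.52 for Cdkn1a. The cause was not tested.

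The replicate numbers were not shown to pair the libraries: same-numbered libraries correlated in their deviations from the group means at 0.20, 0.24, -0.01 and -0.08 over all genes, and deficient library 4 correlated best with control library 1 (0.31).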

Other observations

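Pttg1 encodes securin, which blocks the protease that separates sister chromatids until anaphase, and was picked from the list of other mitosis genes after its values were seen. It had 1628, 1648, 1081 and 199 counts in deficient libraries 1 to 4, against 1402, 214, 1096 and 223 counts in control libraries 1 to 4, at similar depth. Deficient library 4 and control libraries 2 and 4 were low, and all other libraries had 1081 counts or more. The log2 difference was 0.68 ± 0.79 (SE), with an adjusted p of 0.607 in edgeR. The low libraries did not follow the order of the mitotic genes, since control library 1, the lowest for most of these, was high for Pttg1.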
